A study of Homo sapiens with 61 samples.

Results

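The genes described here lie in 5 stretches of the human genome whose transcripts were shifted as blocks in neurons lacking both DLK and LZK. The stretches were given as windows on GRCh38, and a gene belonged to a window by its smallest annotated start. They are chromosome 11 from 100 to 140 Mb, chromosome 16 from 0 to 40 Mb and chromosome 18 from 20 to 80 Mb, where the double knockout was lower, and chromosome 20 from 20 to 80 Mb and chromosome 9 from 20 to 40 Mb, where it was higher. A gene also had to reach a mean level of at least 3 log2 CPM, where CPM is the count scaled to a common library size, over the 32 libraries of the first experiment. This left 754 members among the 58440 genes of the count table: 117 on chromosome 11, 239 on chromosome 16, 111 on chromosome 18, 211 on chromosome 20 and 76 on chromosome 9. The 5 windows hold 4359 genes in all, of which 1347 passed the filter on low counts and 593 of these fell short of the level minimum. Of the members, 715 are protein coding. The windows and their directions were taken from the double knockout differences themselves, so those differences are given as a description. Where calls from the fit across all genes are counted for them, nothing is supported by the counts.

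The libraries are poly(A) RNA from neurons made with NGN2, a transcription factor that turns pluripotent cells into neurons, and labelled "cortical". In the first experiment all cells derived from the established line WTC11, which consists of human induced pluripotent cells, and were wild type (WT), DLK knockout (DLK KO), LZK knockout (LZK KO) or DLK LZK double knockout (double KO). Each line was either untreated, which the protocol gives as DMSO, or exposed to 5 nM vincristine, a drug that destabilises microtubules, for 16 h, with 4 libraries per line and treatment. In the second experiment, WTC11 neurons carried a control guide RNA (gRNA) or one targeting JUN or ATF2, combined with the same treatments, in 29 libraries. The labels do not say whether each knockout line is a single clone, nor whether the replicates were separate cultures, so that the spread between libraries may be technical.

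DLK and LZK are related kinases, products of MAP3K12 and MAP3K13, that start a JNK cascade after axon or microtubule damage, and JUN and ATF2 are transcription factors that JNK phosphorylates. Genes of a chromosome segment that is lost or gained tend to change their transcript levels together, whatever their functions. A gene that stays near the level of the unchanged cells while its neighbours shift is called buffered. The criterion used below is wider, since it also counts genes that moved the opposite way, by any amount. DNA was not analysed here, and whether copy number differs in these stretches was not tested.

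Promoter windows of 6 members show the letters in question, each being the 250 bases before the RefSeq start of the gene on GRCh38.p14, written 5′ to 3′ along the gene. KIF3B (chr20:32277401-32277650, plus strand), a motor of anterograde transport, and ASXL1 (chr20:32358081-32358330, plus strand), a Polycomb-associated regulator, are neighbours on chromosome 20 on either side of the step described below, and capitals mark their CG dinucleotides. The others carry the cAMP response element TGACGTCA, a motif bound by ATF2 and its relatives, marked in capitals: MAPK8IP3 (chr16:1705945-1706194, plus strand), which encodes the JNK scaffold JIP3, HS3ST2 (chr16:22813912-22814161, plus strand), a heparan sulfate sulfotransferase, NOL4 (chr18:34224914-34225163, minus strand), a nucleolar protein gene, and CPNE1 (chr20:35664901-35665150, minus strand), a calcium-dependent phospholipid-binding protein.
KIF3B: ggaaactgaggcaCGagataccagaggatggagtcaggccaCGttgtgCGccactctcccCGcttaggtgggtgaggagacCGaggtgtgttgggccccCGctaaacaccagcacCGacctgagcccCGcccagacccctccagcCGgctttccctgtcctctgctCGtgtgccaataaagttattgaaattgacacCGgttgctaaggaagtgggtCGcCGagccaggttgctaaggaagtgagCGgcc
ASXL1: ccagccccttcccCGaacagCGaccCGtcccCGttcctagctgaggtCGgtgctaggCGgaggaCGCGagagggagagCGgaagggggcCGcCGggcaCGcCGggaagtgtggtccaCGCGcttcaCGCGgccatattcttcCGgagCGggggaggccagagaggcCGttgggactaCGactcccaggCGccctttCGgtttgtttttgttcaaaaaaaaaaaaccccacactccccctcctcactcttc
MAPK8IP3: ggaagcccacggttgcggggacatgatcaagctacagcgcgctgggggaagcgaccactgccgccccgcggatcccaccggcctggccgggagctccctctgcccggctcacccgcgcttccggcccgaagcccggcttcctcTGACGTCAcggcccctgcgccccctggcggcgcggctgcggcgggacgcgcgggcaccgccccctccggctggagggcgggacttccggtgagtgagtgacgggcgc
HS3ST2: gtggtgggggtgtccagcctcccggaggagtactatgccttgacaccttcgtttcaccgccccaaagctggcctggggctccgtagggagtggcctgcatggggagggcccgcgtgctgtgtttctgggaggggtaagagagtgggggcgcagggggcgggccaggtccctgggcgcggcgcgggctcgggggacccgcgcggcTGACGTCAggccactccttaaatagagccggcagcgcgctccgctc
NOL4: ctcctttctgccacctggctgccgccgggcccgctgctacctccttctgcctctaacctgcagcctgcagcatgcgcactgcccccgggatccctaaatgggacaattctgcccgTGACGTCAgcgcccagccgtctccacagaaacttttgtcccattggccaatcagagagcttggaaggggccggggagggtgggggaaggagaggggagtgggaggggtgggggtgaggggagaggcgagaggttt
CPNE1: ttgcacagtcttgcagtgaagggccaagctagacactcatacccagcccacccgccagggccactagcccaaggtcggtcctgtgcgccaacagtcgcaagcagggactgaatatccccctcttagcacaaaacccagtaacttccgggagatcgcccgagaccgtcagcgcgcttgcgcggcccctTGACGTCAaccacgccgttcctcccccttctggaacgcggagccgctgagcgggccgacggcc

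Of the 754 members, 589 were matched by symbol to a RefSeq promoter, and their windows held a median of 23 CG dinucleotides, against 22 in the 7423 matched genes outside the stretches at the same level minimum and 11 in all 27305 promoters of the table. TGACGTCA, which reads the same on both strands, was present in 28 member windows, or 4.75%, against 3.02% of the genes outside the stretches and 1.77% of all promoters. The AP-1 motif TGAGTCA, searched on both strands, was present in 7 member windows (1.19%), against 1.99% and 4.16%. A match describes the letters of the window and not a bound site.

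Total counts per library ran from 8410729 to 14647819 in the first experiment and from 38925807 to 88392414 in the second. MAP3K12 ran from 16.6 to 22.3 CPM in the double KO and from 72.8 to 121 CPM in WT, and MAP3K13 from 26.7 to 32.0 CPM against 96.8 to 145 CPM. All 12 neuron markers examined were detected, with summed levels of 7019 to 10849 CPM over all libraries. Of 8 pluripotent cell markers 3 passed the low-count filter; POU5F1 and NANOG did not exceed 1.04 CPM in any library, while the summed list, mostly LIN28A, ran from 53.4 to 61.6 CPM in double KO and from 1.65 to 3.68 CPM in WT. The 8 progenitor and cycling cell markers, mostly NES, summed to 144 to 152 CPM in double KO and 739 to 1954 CPM in WT. Glial markers, of which 5 of 8 passed the filter, summed to 15.3 to 19.5 CPM in double KO and 21.8 to 29.9 CPM in WT. In LZK KO the glial sum was 38.9 to 51.1 CPM. It was mostly MBP, which alone ran from 12.1 to 43.1 CPM over all libraries. Mesenchymal markers summed to at most 3.41 CPM in any library. The part of these markers in the results on members was not tested. In bulk RNA, fewer cells of a type and less RNA per cell cannot be told apart. The vincristine-treated WT replicate 4 stood apart from its group, and values without it are given beside many of the counts and effects that include it.

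In untreated neurons the median log2 difference of double KO from WT was -0.93 over the 117 members on chromosome 11, -1.02 over the 239 on chromosome 16 and -0.86 over the 111 on chromosome 18, which is 52.3%, 49.3% and 55.2% of the WT level. The medians on chromosomes 20 and 9 were 0.52 and 0.44, or 1.44 and 1.36 times WT. Against LZK KO the medians were -0.92, -0.96, -1.02, 0.54 and 0.45 in the same order. The 9589 genes outside the stretches at the same level minimum had medians of 0.01 against WT and -0.02 against LZK KO.

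The medians in vincristine-treated neurons were of similar size. There the medians were -0.91, -0.99, -0.85, 0.50 and 0.46 against WT and -0.95, -1.02, -1.002, 0.49 and 0.45 against LZK KO, with 0.05 and -0.02 outside the stretches. Without the WT replicate 4 the chromosome 16 median against WT moved from -0.99 to -1.05. The comparisons with WT and LZK KO share the double KO libraries.

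By library the double KO lay apart from every other line in each stretch. The windows and the steps were both placed on double KO differences, so this separation is only a description. Each library's value was taken as the median, over the members inside the steps described below, of its log2 CPM minus the mean of the WT and LZK KO libraries of the same treatment. Untreated double KO libraries ran from -0.95 to -0.90 on chromosome 11, from -1.03 to -0.92 on chromosome 16 and from -1.005 to -0.95 on chromosome 18, and from 0.54 to 0.60 and 0.51 to 0.58 on chromosomes 20 and 9. The lowest value of any other library was -0.35, that of chromosome 16 in the vincristine-treated WT replicate 4, whose 3 partners lay between 0.041 and 0.111.

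**Figure D1:**
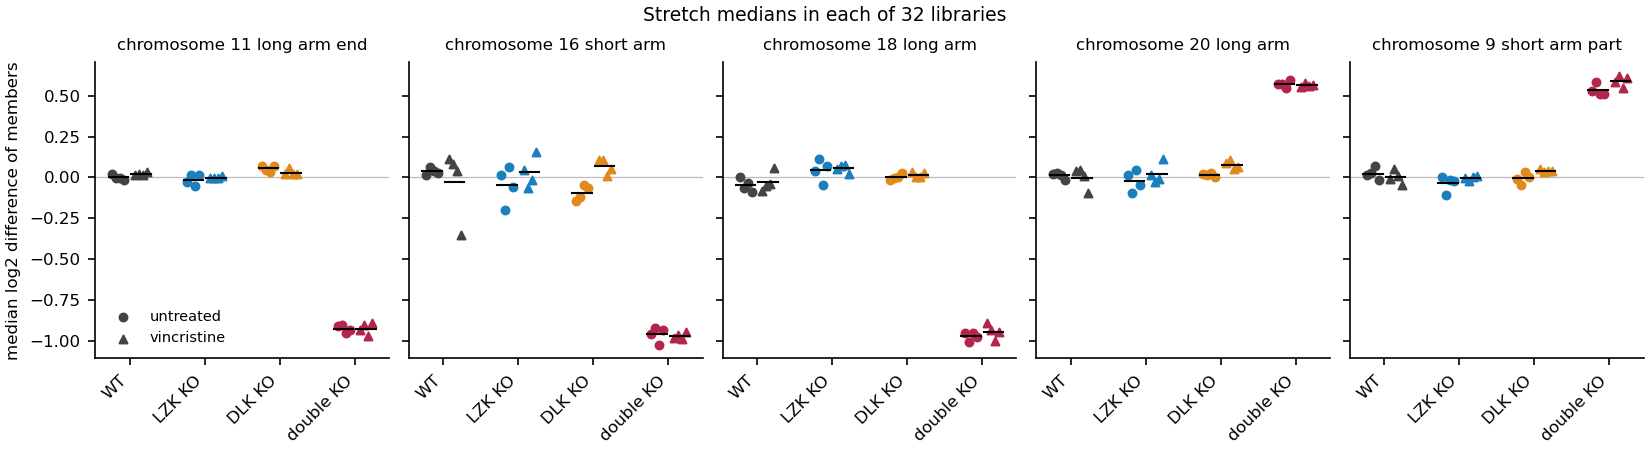
Median log2 difference of the members in each of the 32 libraries of the first experiment, by line (circles untreated, triangles vincristine, bars the mean of 4 libraries) for the members inside the steps of each stretch. Double KO libraries lie near -0.93, -0.96 and -0.97 on chromosomes 11, 16 and 18 and near 0.57 and 0.53 on chromosomes 20 and 9 when untreated, apart from all WT, LZK KO and DLK KO libraries. The windows and steps were placed on double KO differences, so the separation is only a description.

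Members were also counted one by one. The windows were chosen on the same differences, so nothing is read from these counts. All 4 double KO libraries lay beyond all 8 untreated WT and LZK KO libraries, in the stretch direction, for 109 of 117 members on chromosome 11, 223 of 239 on chromosome 16 and 95 of 111 on chromosome 18, where 11% of all 18235 genes tested lay below in this way. The same held for 139 of 211 members on chromosome 20 and 42 of 76 on chromosome 9, where 12.7% of all genes lay above. Against the stretch direction, 2 members on chromosome 18, 8 on chromosome 20 and 5 on chromosome 9 lay apart in this way. In vincristine-treated neurons the counts were 102, 193 and 85 against a background of 10.6%, and 120 and 43 against 12.4%. Without the WT replicate 4 they were 107, 221 and 89 against 13.1%, and 126 and 44 against 13.5%.

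By edgeR's quasi-likelihood fit with Benjamini-Hochberg adjustment (adjusted p under 0.05), 642 of the 754 members were called in the stretch direction against untreated WT, where 22.1% of all genes were called lower and 23.6% higher. The count was 649 against untreated LZK KO, with 19.4% and 19.7% of all genes. It was 634 against vincristine-treated WT (629 without replicate 4), with 27.1% and 28.5%, and 648 against vincristine-treated LZK KO, with 19.8% and 19.9%. In all 4 comparisons, 420 of the 467 members of the lower stretches (89.9%) and 160 of the 287 of the higher ones (55.7%) were called, against 8.52% and 9.65% of all genes. Nothing is read from these shares, since the windows were chosen on the same differences. At the level minimum, COG7 on chromosome 16 and RAB5IF on chromosome 20 lay just above with levels of 3.06 and 3.01 log2 CPM and differences of -0.72 and 0.60 from untreated WT. Just below, at 3.00, were C18orf54 and DSC2 on chromosome 18, with -0.71 and -0.64.

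**Figure D2:**
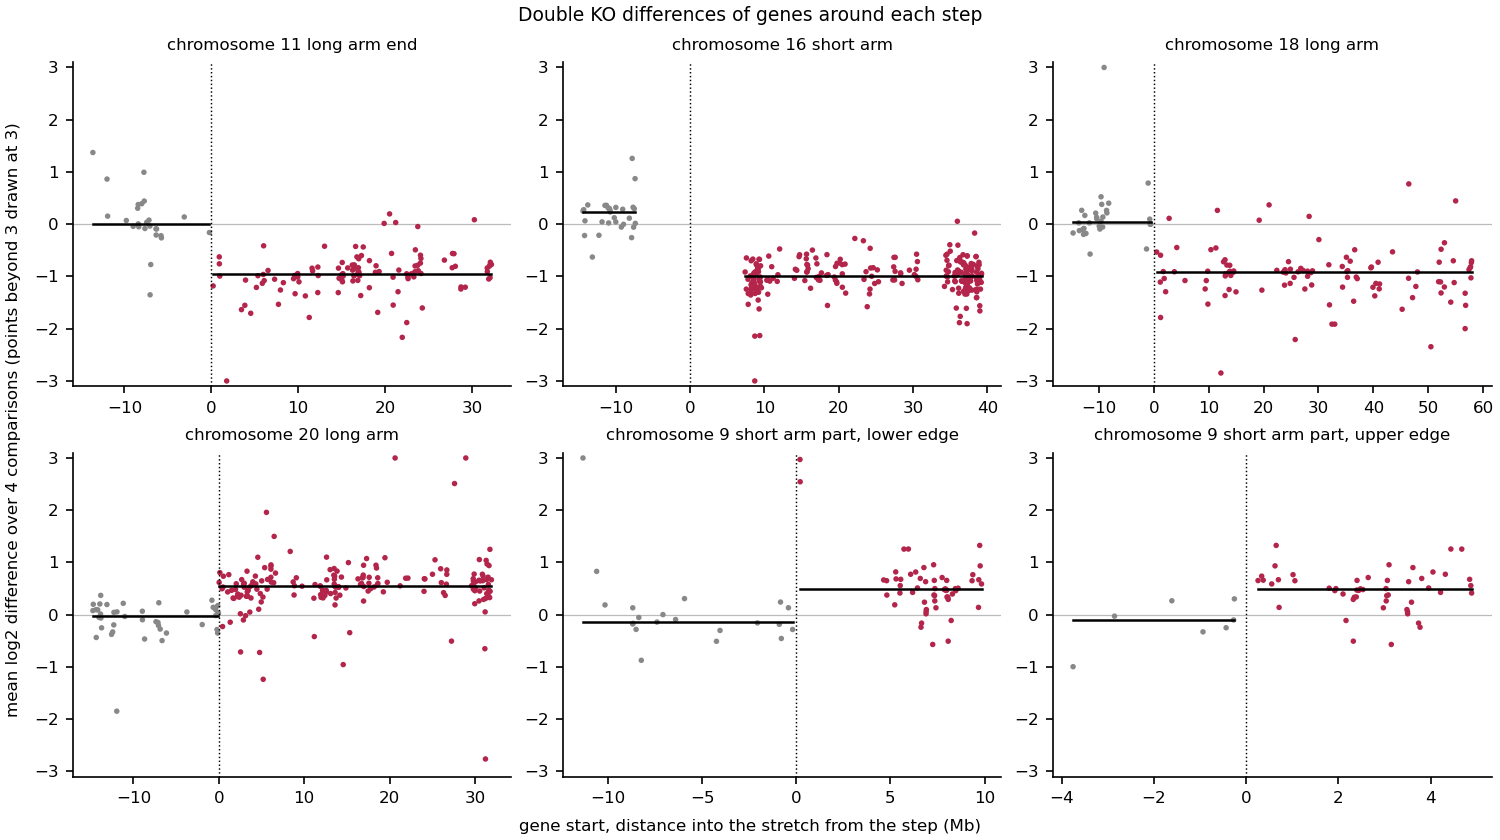
Mean log2 difference of the double KO over the 4 comparisons for each gene at the level minimum, against the distance of its start from the step in Mb (red inside, grey outside, horizontal lines the medians of the points drawn). Over the profiles used to place the step, whose range differs from that of the points drawn, the median changes from -0.01 to -0.95 on chromosome 11. On chromosome 20 it changes from 0.02 to 0.55.

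The members did not fill their windows evenly. A single change point was placed in each profile after the data had been seen, by least absolute deviation over the mean of the 4 double KO comparisons. On chromosome 11 it fell between CEP126 (start 101915015) and BIRC2 (102347211), where the median went from -0.01 to -0.95. On chromosome 16 the lower values ended between ZNF267 (31873758) and VPS35 (46656132), on either side of the centromere, with -0.99 before and 0.12 after. On chromosome 18 the change lay between MIB1 (21704957) and RBBP8 (22798261), from 0.11 to -0.92. On chromosome 9 the higher values began between C9orf72 (27546545) and AL353746.1 (27937617), with medians of -0.15 before and 0.51 after. A second edge was placed between SLC25A51 (37879400) and ALDH1B1 (38392664), with 0.50 before and 0.24 after. The median of the 31 genes beyond it stayed above 0, so this edge is weaker than the others and the higher values did not plainly end there. The vincristine-treated libraries alone placed that last edge 1 gene further, between ALDH1B1 and IGFBPL1, and every other edge at the same pair. Of the 754 members 704 lie inside these steps and 50 outside: 27 on chromosome 20, 17 on chromosome 9, 5 on chromosome 18 and 1 on chromosome 11.

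The change on chromosome 20 fell between KIF3B (start 32277664) and ASXL1 (start 32358330), whose promoters are shown above. KIF3B was at 145, 156, 153 and 163 CPM in untreated WT, 126, 124, 129 and 129.7 CPM in LZK KO and 146, 158, 145 and 146 CPM in double KO. ASXL1 was at 93.8, 98.4, 100.2 and 103 CPM in WT, 92.7, 99.0, 109.8 and 96.8 CPM in LZK KO and 155, 167, 159 and 162 CPM in double KO. The KIF3B libraries of double KO overlapped those of WT, with a log2 difference of -0.05 ± 0.06 (SE), and lay above all those of LZK KO. All ASXL1 libraries of double KO lay above the other lines, with a difference of 0.70 ± 0.08 from WT. Of 20 genes listed for the proximal long arm of chromosome 20, an interval known to be gained in cultured pluripotent stem cells, 13 were members. The step runs through this interval, and 7 of the 13 were higher in all 4 comparisons, 5 were called so in all 4 and 3 counted as buffered. BCL2L1, the anti-apoptotic gene for which the interval is best known, lies on the KIF3B side at 65.3, 65.3, 65.2 and 63.9 CPM in untreated WT and 70.3, 69.5, 59.0 and 65.4 CPM in double KO, which overlapped.

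Inside the steps the medians on the higher stretches were larger than in the whole windows, at 0.56 and 0.57 on chromosome 20 and 0.52 and 0.51 on chromosome 9 in untreated neurons, against WT and LZK KO. That is 1.48, 1.49, 1.44 and 1.42 times the level of the line compared. The steps were placed on the same differences, so larger medians inside them follow from how they were placed. Among the lower stretches, the median that moved most was that of chromosome 18 against LZK KO, from -1.02 to -1.07.

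Some of the most highly expressed members of the lower stretches were genes of general cell upkeep. Others were not, among them SYT4 on chromosome 18, which counted as buffered and is given below. HSPA8 (chr11:123057489-123063230), the constitutive cytosolic HSP70 chaperone, was at 2716, 2531, 2720.1 and 2059.6 CPM in untreated WT, 2178, 2427, 1940.0 and 2488 CPM in LZK KO and 1121, 978, 1021 and 1176 CPM in double KO. All double KO libraries lay below both other lines, with log2 differences of -1.22 ± 0.12 and -1.07 ± 0.12. SRRM2 (chr16:2752329-2772538), a scaffold of nuclear speckles, was at 849 to 926 CPM in WT, 722 to 962 in LZK KO and 406 to 447 in double KO. RPS2 (chr16:1962052-1964860), a small-subunit ribosomal protein, was at 319 to 389, 249 to 279.7 and 149 to 168 CPM in the same lines. Neither gene overlapped between double KO and the other lines, and their differences from WT were -1.04 ± 0.13 and -1.17 ± 0.06.

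Of 2 genes on chromosome 16, MAPK8IP3 lay near the stretch median of -1.02 against untreated WT, and MAPK3 lay further below. MAPK8IP3 was at 194, 211, 196 and 208 CPM in untreated WT, 209, 195, 252 and 198 CPM in LZK KO and 89.1, 99.5, 83.8 and 92.5 CPM in double KO. In vincristine-treated WT it was at 259, 224, 199 and 97.3 CPM, where replicate 4 came close to the double KO range of 81.9 to 84.0. The untreated differences were -1.15 ± 0.17 and -1.23 ± 0.17. MAPK3, which encodes the kinase ERK1, was at 47.5, 48.5, 48.7 and 40.4 CPM in WT and 12.8, 14.0, 13.9 and 14.2 CPM in double KO, a difference of -1.75 ± 0.11 with no overlap.

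On chromosome 18, TCF4 (chr18:55222331-55664787), a basic helix-loop-helix factor active in cortical neurons, lay further down than its stretch. It was at 63.4, 59.3, 58.4 and 64.7 CPM in untreated WT, 51.5, 66.0, 54.7 and 60.7 CPM in LZK KO and 13.7, 14.7, 18.0 and 14.6 CPM in double KO. All double KO libraries lay below both other lines, and the differences were -2.003 ± 0.09 and -1.93 ± 0.09. The furthest below its stretch was ZNF785 on chromosome 16, a zinc-finger gene, at 33.5 to 39.1 CPM in untreated WT, 26.2 to 36.3 in LZK KO and 0.252 to 0.882 in double KO. Its differences were -6.17 and -5.91 untreated and -6.55 and -6.02 with vincristine.

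On the higher stretches DNAJA1 (chr9:33025211-33039907), a co-chaperone of HSP70, was at 799, 755, 802 and 656 CPM in untreated WT, 820.0, 843, 744 and 911 CPM in LZK KO and 1344, 1180.3, 1222 and 1366 CPM in double KO, with no overlap and differences of 0.76 ± 0.09 and 0.62 ± 0.09. GNAS (chr20:58839718-58911192), the imprinted gene of the stimulatory G protein alpha subunit, was at 1214, 1179, 1208 and 1098 CPM in WT and 1515, 1452, 1387 and 1445 CPM in double KO, a difference of 0.30 ± 0.07 with no overlap. CDH4, a cadherin of axon outgrowth, lay far above its stretch, at 19.3, 19.6, 15.8 and 16.9 CPM in WT, 14.3, 11.1, 14.7 and 11.8 CPM in LZK KO and 133, 142, 130.4 and 133 CPM in double KO, or 2.91 ± 0.14 and 3.37 ± 0.15. LINGO2, a neuronal leucine-rich repeat protein, was at 8.20 to 10.4 CPM in WT, 4.07 to 8.06 in LZK KO and 41.8 to 48.4 in double KO. For both genes the double KO libraries lay above all others. AL353746.1, which lies next to LINGO2 on the same strand without overlapping it, was higher by 2.43 and 3.57.

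**Figure D3:**
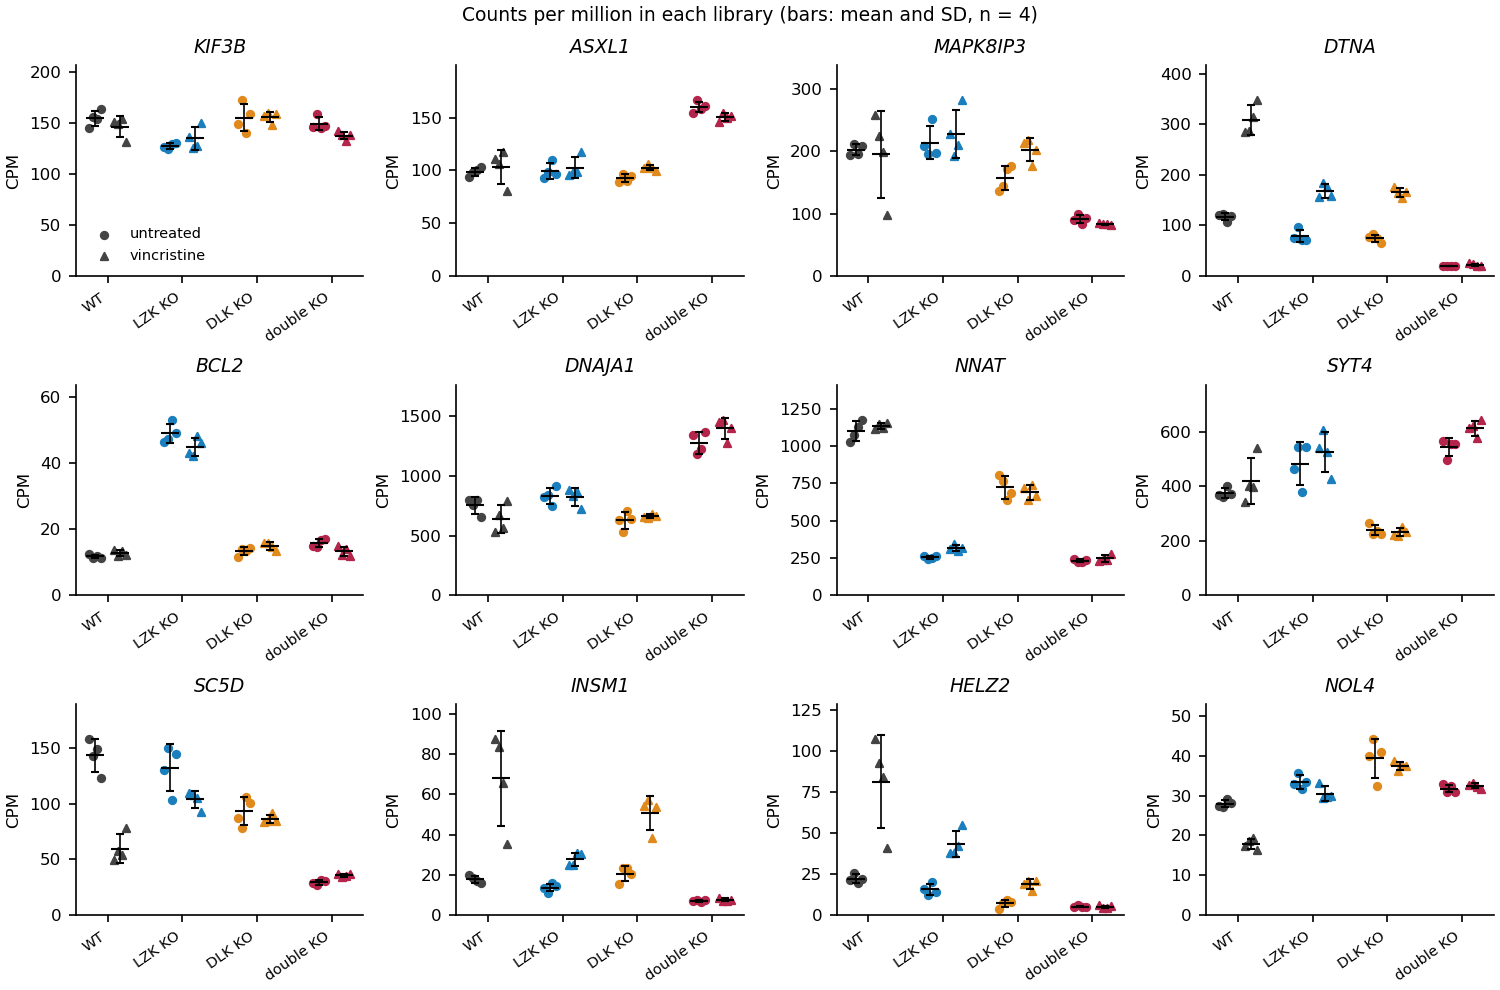
CPM of 12 members in each library of the first experiment, by line (circles untreated, triangles vincristine, bars mean and SD of 4 libraries). ASXL1 and DNAJA1 are highest in double KO, MAPK8IP3 and DTNA lowest, and KIF3B in double KO overlaps WT. SC5D, INSM1, HELZ2 and DTNA differ between untreated and vincristine-treated WT.

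Some members differed in sign between the comparisons with WT and with LZK KO. BCL2, an anti-apoptotic gene on chromosome 18, was at 12.4, 11.4, 11.9 and 11.3 CPM in untreated WT, 46.4, 47.4, 53.1 and 49.1 CPM in LZK KO and 15.0, 14.7, 16.7 and 17.1 CPM in double KO, so that double KO was above WT (0.43 ± 0.09) and below LZK KO (-1.63 ± 0.08). DCC, the netrin receptor of axon guidance, was at 47.3, 44.6, 48.5 and 51.0 CPM in WT, 187, 178, 183 and 174 CPM in LZK KO and 78.5, 83.7, 78.8 and 77.8 CPM in double KO (0.74 and -1.18). GALR1, a galanin receptor, went the other way, at 24.9 to 29.0 CPM in WT, 0.471 to 1.59 in LZK KO and 6.24 to 8.01 in double KO (-1.97 and 2.59). For these 3 the line of reference set the sign.

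Functional lists cut across the stretches, and their members are counted here by the direction of the stretch. Lower and higher refer to the sign of the difference only. Of the neuronal adhesion, synapse and excitability genes, 20 of the 23 members in the lower stretches were lower in all 4 comparisons and 19 were called so in all 4, with a median of -1.11 against untreated WT. In the higher stretches 8 of 12 were higher in all 4, 5 were called so, and the median was 0.47. Over all members the shares called in all 4 were 89.9% and 55.7%, and over all genes tested they were 8.52% lower and 9.65% higher. These shares stand beside the counts of every list here and below. Nothing particular to a list is read from its counts, which were not tested.

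Cell death, DNA damage and stress genes had 11 of 12 members lower in all 4 and 10 called, with a median of -1.03, among them ATM (-1.17 against WT, -1.09 against LZK KO), the DNA damage kinase, and BIRC2 (-1.002 and -1.32), an inhibitor of apoptosis. In the higher stretches it was 4 of 6, with 3 called and a median of 0.51. Of the transcription and chromatin regulators 9 of 11 were lower and called in all 4, with a median of -0.80, and 11 of 12 were higher, 10 of them called, with a median of 0.69. SMAD4, the common SMAD of TGF-beta signalling, was at -1.04, and TOP1, topoisomerase I, at 0.68 against WT.

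Housekeeping complexes had members on both sides. Ribosome and translation factor members were lower in 6 of 6 and called in 5 on the lower side, with a median of -1.12, and on the higher side 2 of 4 were higher and 1 was called, with a median of 0.42. EIF3C and EIF3CL are near-identical copies whose reads could be split in counting. Respiratory chain and ATP synthase members were lower in 9 of 9, with 8 called and a median of -1.25, and 2 of 2 were higher by sign, with 1 called. NDUFB6, 1 of these 2, counted as buffered, as described below. Proteasome, ubiquitin and chaperone members were lower and called in 8 of 8, with a median of -1.04, and higher in 10 of 13, 6 of them called, with a median of 0.50.

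The spread of the members about their stretch was close to that of other genes about 0. The SD of the log2 difference from untreated WT inside the steps was 0.50 on chromosome 11, 0.48 on chromosome 16, 0.59 on chromosome 18, 0.66 on chromosome 20 and 0.55 on chromosome 9, against 0.61 over the 9589 other genes. Against LZK KO it was 0.41, 0.43, 0.64, 0.49 and 0.60, against 0.52. Members were spread more widely than other genes on chromosome 20 against WT and on chromosomes 18 and 9 against LZK KO, and less widely in the other 7 comparisons.

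**Figure D4:**
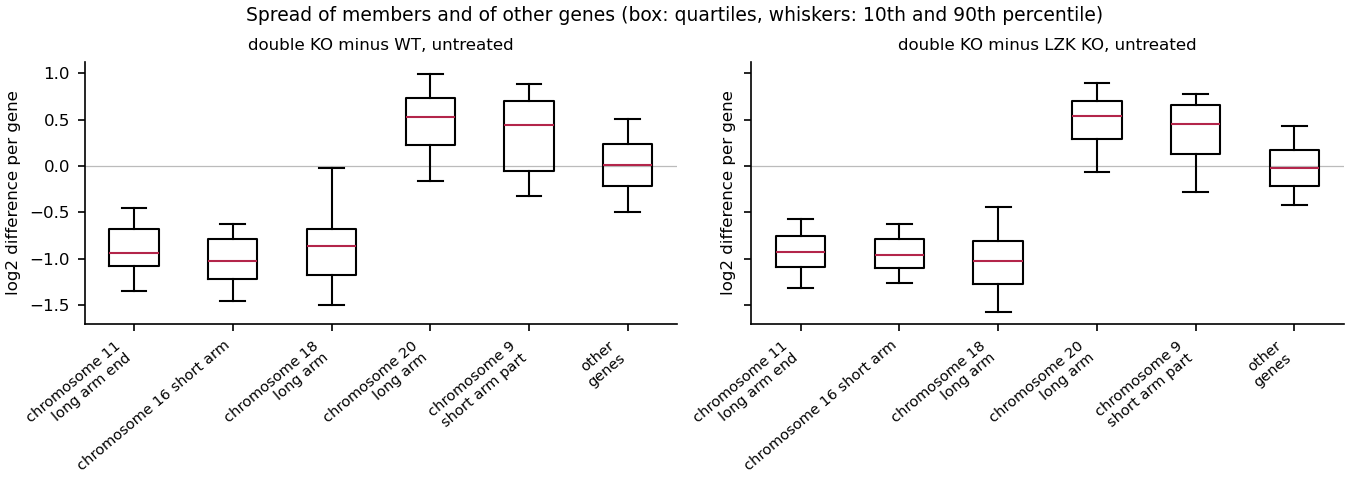
Quartiles (box), median (line) and 10th to 90th percentile (whiskers) of the log2 difference of untreated double KO from WT and from LZK KO, for the members of each stretch and for the other genes at the level minimum. The boxes of the 3 lower stretches lie near -1 and those of chromosomes 20 and 9 near 0.5, while the other genes are centred at 0.01 and -0.02.

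A member was counted as buffered when its difference from both untreated WT and untreated LZK KO was less than 25% of the stretch median, or went the opposite way. Of the 754 members 56 (7.43%) were buffered, and 32 of them lie outside the steps, 17 on chromosome 20, 12 on chromosome 9 and 3 on chromosome 18. Inside the steps 24 of 704 (3.41%) remained: 2 on chromosome 11, 1 on chromosome 16, 5 on chromosome 18, 11 on chromosome 20 and 5 on chromosome 9. The rule chose these on the untreated libraries. In the vincristine-treated libraries, which it did not use, 19 of the 24 met the same criterion. Of all 704 members inside the steps 30 met it there, 11 of which were not buffered in untreated neurons. For 23 of the 24 the 95% intervals of both vincristine comparisons stayed short of the stretch median, the exception being NDUFB6.

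The same distance was then measured from the median of the members inside the steps, and from their own median for the genes outside the stretches. Of the latter, 2.71%, 2.54%, 2.56%, 5.00% and 5.89% lay as far out in both comparisons as a buffered member must on chromosomes 11, 16, 18, 20 and 9. Inside the steps the shares of members were 1.72%, 0.418%, 4.72%, 5.98% and 10.2%, that is 2, 1, 5, 11 and 6 genes. The shares were lower than in other genes on chromosomes 11 and 16 and higher on the other 3, without a test. The buffered members inside the steps had a median level of 4.80 log2 CPM against 5.12 for the rest, and a median exon length of 5283 against 5837 bases.

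**Figure D5:**
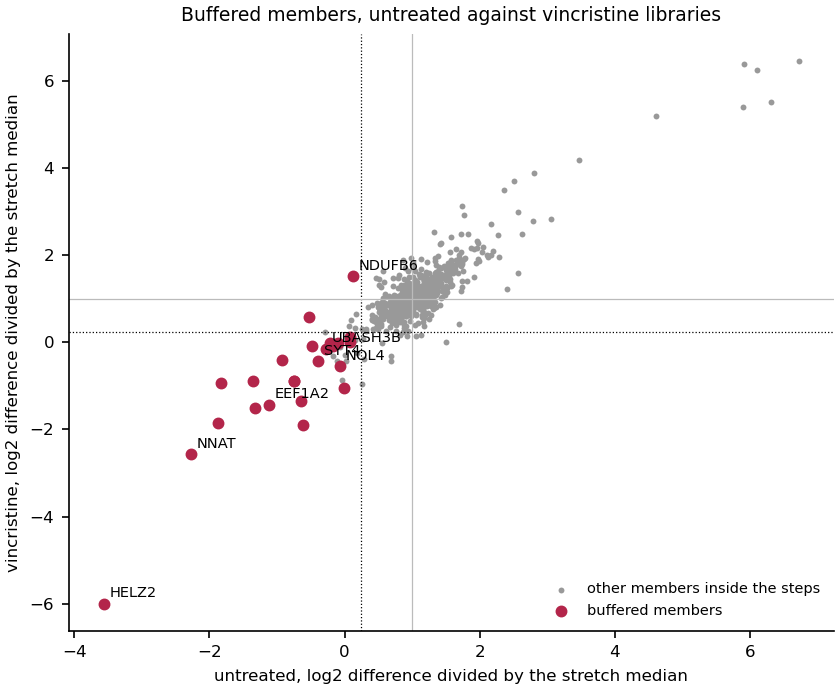
Log2 difference divided by the stretch median, averaged over the comparisons with WT and LZK KO, in untreated (x axis) and vincristine-treated libraries (y axis) for each member inside the steps (1 is the stretch median, dotted lines 0.25). The 24 buffered members, in red, lie left of 0.25 on the x axis, and most also lie below 0.25 on the y axis, NDUFB6 being among the exceptions.

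Inside the steps, the buffered members of the lower stretches were 8 in number. DDX25, an RNA helicase of chromosome 11 best known from the testis, was at 10.6, 10.8, 11.9 and 13.9 CPM in untreated WT, 10.5, 12.8, 10.5 and 13.8 CPM in LZK KO and 11.4, 11.2, 11.6 and 10.4 CPM in double KO, with differences of -0.08 ± 0.14 and -0.08 ± 0.14. UBASH3B, a phosphatase that acts on tyrosine kinase signalling, was at 24.8, 22.2, 23.7 and 28.2, then 23.7, 28.3, 20.6 and 23.8 and 25.7, 31.9, 30.4 and 28.1 CPM in the same lines. For both genes double KO overlapped WT, and UBASH3B differed by 0.24 ± 0.09 and 0.28 ± 0.09, where the chromosome 11 median was -0.93. TIGD7, a gene derived from a transposon and the single buffered member of the 239 on chromosome 16, was at 21.5, 20.8, 21.2 and 21.6, then 16.1, 18.9, 17.9 and 20.2 and 23.0, 19.9, 17.5 and 24.1 CPM, with -0.01 ± 0.11 and 0.20 ± 0.11.

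SYT4 (chr18:43267878-43277650), a synaptotagmin of dense-core vesicles on chromosome 18, was at 369.5, 362, 399.8 and 370.4 CPM in untreated WT, 465, 543, 378 and 545 CPM in LZK KO and 566, 495, 557 and 556 CPM in double KO. It was above WT (0.53 ± 0.11) and overlapped LZK KO (0.17 ± 0.11), while DLK KO was lowest at 225 to 265 CPM. NOL4 was at 27.3, 27.2, 29.1 and 28.1 CPM in WT, 33.0, 35.7, 31.6 and 33.3 CPM in LZK KO and 32.9, 30.9, 32.5 and 31.0 CPM in double KO (0.18 ± 0.07 and -0.07 ± 0.07). ZNF521, a zinc-finger regulator of neural differentiation, stood at 0.22 and 0.10, and CCDC102B at 0.49 and 0.93. KC6, a non-coding RNA, was the fifth on this chromosome, at 0.58 and -0.25.

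On the higher stretches several buffered members went below the lines compared. NNAT (chr20:37521215-37523693), the imprinted neuronatin gene, was at 1026, 1074, 1129.8 and 1175 CPM in untreated WT, 262, 244, 253 and 264 CPM in LZK KO and 244, 224, 222 and 236 CPM in double KO. LZK KO and double KO both lay far below WT, so that double KO differed by -2.25 ± 0.07 from WT and by -0.14 ± 0.07 from LZK KO. EEF1A2, the neuronal form of translation elongation factor 1 alpha, was at 382, 395, 398 and 347, then 209, 156, 216 and 197 and 182, 183, 179 and 179 CPM, with -1.07 ± 0.13 and -0.10 ± 0.13, the double KO libraries falling within the LZK KO range. L3MBTL1, another imprinted gene and a chromatin reader, stood at -0.47 and -0.33, while GNAS, imprinted as well, was not buffered. HELZ2, a nuclear receptor coactivator gene, lay below both lines, at -2.14 and -1.64 untreated and -4.09 and -3.18 with vincristine.

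Of the 24, 5 missed the criterion in vincristine, among them NECAB3, ACSS2 and SCAND1 on chromosome 20 and NDUFB6 on chromosome 9. NDUFB6, a subunit of respiratory complex I, was at 20.9, 21.6, 20.4 and 16.1 CPM in untreated WT and 21.9, 19.7, 20.5 and 19.1 CPM in untreated double KO, which overlapped (0.04 ± 0.17). With vincristine it was at 10.2, 14.1, 11.5 and 19.7 CPM in WT and 26.6, 29.6, 25.1 and 29.6 CPM in double KO, with no overlap (1.00 ± 0.17, and 1.22 without the WT replicate 4).

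DLK KO and LZK KO, compared with each other, are lines whose difference the choice of members did not use. By edgeR's quasi-likelihood test, 303 of the 754 members (40.2%) differed between untreated LZK KO and DLK KO, 153 higher in LZK KO and 150 lower, against 38.5% of all genes tested and 43.9% of the other genes at the level minimum. With vincristine it was 282 (37.4%), against 39.5% and 45.2%. The member shares lay below those of other genes of like level, a difference that was not tested. No stretch moved as a block in this comparison, with untreated medians between -0.07 and 0.07. The largest differences were in CLMP, a cell adhesion molecule (log2 difference 2.77 ± 0.07, adjusted p = 6.20e-28), SALL3, a zinc-finger factor (2.34 ± 0.14, adjusted p = 4.32e-15), and SNORD12B, a small nucleolar RNA (2.21 ± 0.59, adjusted p = 0.00388). On the other side were GALR1 (-5.28 ± 0.18, adjusted p = 9.46e-24), PDGFD, a growth factor (-1.68), and AL353746.1 (-1.58). BCL2 was higher in LZK KO than in DLK KO, by 1.88 ± 0.09 (adjusted p = 1.16e-19), at 46.4 to 53.1 against 11.7 to 14.2 CPM with no overlap.

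Vincristine changed 254 members in WT (33.7%) by edgeR's quasi-likelihood test, 106 up and 148 down, against 30.2% of all genes and 38.4% of the 9589 other genes at the level minimum. The count was 310 without the WT replicate 4, and 144 when only the 2 WT groups were fitted. In DLK KO 62 members were called (8.22%), against 6.53% of all genes and 9.45% at the level minimum. That count was 28, 32, 29, 28 and 36 without untreated replicates 1 and 2 and vincristine replicates 1, 2 and 4, and 211 when the DLK KO groups were fitted alone. In LZK KO it was 26 (3.45%), against 3.88% and 5.41%, and it went to 13 without untreated replicate 2 and to 11 with these groups alone. In double KO 0 members passed with edgeR (39 at an unadjusted p under 0.05) and 0 with DESeq2, against 0.0658% and 0.115% with edgeR, and 51 passed when the double KO groups were fitted alone.

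The vincristine effect itself differed between double KO and WT for 166 members (22.0%), 92 higher and 74 lower in double KO, against 19.4% of all genes and 25.9% of those at the level minimum. Without the WT replicate 4 the count was 250. Between double KO and LZK KO the effect differed for 6 members (0.796%), against 0.916% and 1.38%. This count was 11 without LZK KO untreated replicate 3, 12 with DESeq2 and 14 when only these groups were fitted. Whether members differ from other genes in these shares was not tested.

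The members that vincristine raised most in WT were INSM1, HELZ2 and ZBTB7C. INSM1, a zinc-finger factor of neurogenesis that lies outside the chromosome 20 step, went from 19.7, 18.4, 17.0 and 15.7 to 87.4, 83.6, 65.8 and 35.4 CPM, with no overlap and replicate 4 the lowest of the treated libraries (1.95 ± 0.18, adjusted p = 1.47e-09). In double KO it was at 6.54 to 7.54 CPM untreated and 6.77 to 8.50 CPM with vincristine, which overlapped, and the effects differed by -1.89 ± 0.30 (adjusted p = 3.75e-05). HELZ2 went from 21.4, 25.7, 19.2 and 22.2 to 107, 92.4, 84.4 and 40.9 CPM in WT (1.88 ± 0.21, adjusted p = 4.11e-08). Its double KO libraries were at 4.61 to 5.70 and 4.14 to 5.74 CPM, and the difference between effects was -1.95 ± 0.38 (adjusted p = 3.96e-04). ZBTB7C, a zinc-finger repressor on chromosome 18, rose by 1.55 ± 0.13 in WT (adjusted p = 2.30e-12), and its effect differed by -1.55 ± 0.23 (adjusted p = 3.63e-06). Without the WT replicate 4 the WT effects were 2.15 for INSM1, 2.10 for HELZ2 and 1.68 for ZBTB7C, and the differences between effects -2.09, -2.17 and -1.69.

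Those that vincristine lowered most in WT were SC5D, CDH7 and CYB5A. SC5D, an enzyme of cholesterol synthesis on chromosome 11, went from 158, 143, 149.8 and 123 to 49.0, 57.2, 53.5 and 78.3 CPM, with no overlap (-1.27 ± 0.11, adjusted p = 7.56e-11). In double KO it was at 28.3, 26.9, 31.6 and 30.5 and 36.8, 34.5, 34.7 and 36.7 CPM, and the effects differed by 1.56 ± 0.17 (adjusted p = 1.21e-08). The difference of double KO from WT was -2.29 untreated and -0.74 with vincristine. CDR2, a gene of chromosome 16 whose product is an antigen in paraneoplastic cerebellar disease, went from 16.7, 17.9, 16.5 and 16.6 to 8.21, 9.08, 9.21 and 5.50 CPM in WT and from 6.55, 6.50, 6.37 and 8.29 to 9.94, 8.06, 8.67 and 6.48 CPM in double KO, with effects that differed by 1.32 ± 0.18 (adjusted p = 1.24e-06). CDH7, a cadherin, fell by 1.16 on the log2 scale in WT (adjusted p = 9.44e-15), and CYB5A, cytochrome b5, fell by 1.12 (adjusted p = 3.95e-07). Without the WT replicate 4 the WT effects were -1.43 for SC5D, -1.24 for CDH7 and -1.31 for CYB5A, and the differences between effects 1.72 for SC5D and 1.19 for CDR2.

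DTNA (chr18:34493290-34891844), which encodes dystrobrevin alpha of the dystrophin complex, passed the test for a vincristine effect in WT, DLK KO and LZK KO and not in double KO. It went from 121, 123, 106 and 118 to 286, 287, 315 and 348 CPM in WT, from a range of 65.5 to 82.2 CPM to one of 154 to 177 CPM in DLK KO, and from 70.9 to 97.3 CPM to 157 to 185 CPM in LZK KO. Double KO was at 19.4, 18.9, 20.1 and 18.9 CPM untreated and 24.7, 22.6, 20.1 and 20.0 CPM with vincristine. No untreated library overlapped a treated one in the first 3 lines, while those of double KO overlapped. The effects were 1.40 ± 0.08, 1.14 ± 0.09, 1.10 ± 0.09 and 0.17 ± 0.10 (adjusted p = 0.802 for double KO by edgeR), and double KO differed from WT by -1.22 ± 0.13 (adjusted p = 5.62e-09) and from LZK KO by -0.92 ± 0.13 (adjusted p = 4.66e-05). Without the WT replicate 4 the WT effect was 1.33 and the difference of double KO from WT was -1.16. The other members whose effect differed between double KO and LZK KO were DRD2, the dopamine D2 receptor (-1.02), VWA5A (-0.80), CDH7 (0.48), DNAJB5, a heat shock protein (-0.48), and NPR2, a natriuretic peptide receptor (-0.67). The calls of CDH7 (adjusted p = 0.0272) and VWA5A (adjusted p = 0.0195) did not hold without single libraries. CDH7 lost its call, at 0.41 to 0.47, without LZK KO untreated replicates 1 or 4 or vincristine replicates 2 or 3, or double KO untreated replicates 2 or 3 or vincristine replicate 1. VWA5A lost it, at -0.79 to -0.69, without LZK KO untreated replicate 3 or double KO untreated replicates 2 or 4 or vincristine replicate 1. DRD2 and NPR2 were named after their values were seen.

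In the second experiment 750 of the members were tested, in cells whose guide RNAs the choice of members did not use. Vincristine changed 410 of them with the control gRNA (54.7%), 158 up and 252 down, against 35.3% of all 20759 genes tested and 54.8% of the 9508 other genes at the level minimum. Of the 254 members changed in WT, 206 were also changed in the same direction with the control gRNA (81.1% of those of WT and 50.2% of those of the control gRNA), and 3 in the opposite direction. This overlap was not counted over other genes, so nothing particular to the members is read from it. The ATF2 gRNA changed 411 members in untreated neurons (54.8%), 161 up and 250 down, against 39.9% of all genes and 58.3% of the other genes at the level minimum. The JUN gRNA changed 122 (16.3%), against 11.2% and 18.7%. The differences between these shares were not tested.

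DTNA was at 122, 126, 127, 134 and 134 CPM in the 5 untreated control gRNA libraries and 30.3, 30.8, 31.0, 31.8 and 32.0 CPM in those with the ATF2 gRNA, with no overlap (-2.04 ± 0.05, adjusted p = 4.37e-34). HS3ST2 was at 71.5, 72.8, 76.4, 77.7 and 79.2 CPM and 29.6, 29.6, 30.2, 31.7 and 32.3 CPM (-1.30 ± 0.06, adjusted p = 4.11e-23), and NOL4 differed by -0.71 ± 0.09 (adjusted p = 4.29e-09). The vincristine effect on HS3ST2 was -0.79 ± 0.06 with the control gRNA (adjusted p = 1.51e-15) and -0.65 ± 0.09 in WT (adjusted p = 7.41e-07). On NOL4 it was -1.07 ± 0.09 (adjusted p = 8.95e-14) and -0.64 ± 0.08 (adjusted p = 3.83e-08). Without the vincristine-treated WT replicate 4 the WT effects were -0.53 for HS3ST2 and -0.61 for NOL4. Both genes fell with the drug in WT and with the control gRNA, and neither was called in the knockout lines. In DLK KO, LZK KO and double KO the effects were 0.24, 0.17 and -0.11 for HS3ST2. For NOL4 they were -0.07, -0.13 and 0.03. MAPK8IP3 and CPNE1, whose promoters hold the same motif, were at -0.03 ± 0.05 (adjusted p = 0.718) and 0.09 ± 0.06 (adjusted p = 0.232) with the ATF2 gRNA. Over the 28 members with TGACGTCA in the promoter window, 15 (53.6%) were called with the ATF2 gRNA, 11 lower and 4 higher, against 302 of 560 members without it (53.9%), 181 lower and 121 higher. The difference between these shares was not tested.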

How the data were processed

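The deposited tables hold raw read counts per gene, made by the authors on GRCh38. Per the submitters' processing notes, cutadapt 3.4, STAR, Subread 2.0.1 and featureCounts were used. Per the file headers, duplicates were marked before counting. Strand setting, annotation release and whether duplicates were counted are not given in the sources used here, so reads of overlapping genes may be shared. Of 58440 gene identifiers, 58320 were matched to a symbol, and 0 count columns were left unused.

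From the counts, edgeR 4.0.16 (R 4.3.3) filtered low genes by group, computed TMM factors, and fitted a robust quasi-likelihood model with 1 mean per group to all genes of an experiment. P-values were adjusted by Benjamini-Hochberg over all genes, with a threshold of 0.05. Log2 CPM used a prior count of 2. Intervals are 95%. DESeq2 1.42.0, other scalings, filters and left-out libraries were alternatives. The fit was tested on simulated data. Members, windows, lists and criteria were chosen with earlier results of these data known. Genes were named by list, level, shift, buffering and effect size, with 3 buffered members per stretch, and the other buffered members, NOL4, HS3ST2, CPNE1, DRD2 and NPR2 were added after their values were seen. Replicate numbers did not pair samples: correlations of the deviations of same-numbered libraries ran from -0.72 to 0.45. No pair of libraries agreed within sampling noise. The values of 1 member are not reported here.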

Additional observations from a re-analysis of the deposited data

Results flagged for a closer look

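Within groups of 4 libraries, 16 of 280 stretch values and gene levels examined had 1 library apart from the other 3 by Dixon's criterion, where chance gives about 1 in 20. For the stretches, the chromosome 16 value of the vincristine-treated WT replicate 4 was -0.35 against 0.0413 to 0.111, and 1 vincristine-treated DLK KO library was at 0.0549 on chromosome 11 against 0.0181 to 0.0226. The same WT library was low for CDH4, at 6.58 CPM against 15.7 to 17.2 CPM. What sets this library apart was not tested.

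Several of the others fell on the untreated double KO replicate 2, with KIF3B at 158 CPM against 145 to 146, DCC at 83.7 against 77.8 to 78.8 and SYT4 at 495 against 556 to 566. Replicate 1 of that group had MAPK3 at 12.8 CPM against 13.9 to 14.2, and replicate 4 had CDR2 at 8.29 against 6.37 to 6.55. In vincristine-treated double KO, NNAT was at 279 CPM in replicate 4 against 233 to 240. The vincristine-treated LZK KO replicate 4 had ASXL1 at 118 CPM against 95.6 to 98.9 and MAPK3 at 46.9 against 35.5 to 37.3, and replicate 1 had NOL4 at 33.2 against 29.3 to 29.9. In untreated WT, MAPK3 was at 40.4 CPM in replicate 4 against 47.5 to 48.7, and CDR2 at 17.9 in replicate 2 against 16.5 to 16.7. In DLK KO, SC5D was at 92.1 CPM in vincristine replicate 3 against 83.9 to 84.9, and CDR2 at 13.6 in untreated replicate 4 against 14.7 to 14.9.

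The vincristine effect differed between double KO and WT by a test of the difference (edgeR quasi-likelihood, Benjamini-Hochberg). SC5D differed by 1.56, from effects of 0.282 in double KO and -1.27 in WT, CDR2 by 1.32 (0.254 and -1.07), CDH7 by 1.17 (0.00658 and -1.16) and NOL4 by 0.671 (0.0304 and -0.64). HELZ2 differed by -1.95 (-0.07 and 1.88), INSM1 by -1.89 (0.0614 and 1.95), ZBTB7C by -1.55 (-0.00485 and 1.55) and DTNA by -1.22 (0.175 and 1.40). Between double KO and LZK KO the effect differed by -0.922 for DTNA (0.175 and 1.10), -1.02 for DRD2 (-0.181 and 0.835), -0.80 for VWA5A (-0.0839 and 0.716), 0.478 for CDH7 (0.00658 and -0.472), -0.476 for DNAJB5 (-0.0697 and 0.407) and -0.669 for NPR2 (-0.25 and 0.42).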

How the results depend on the processing

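Each of 82 results was recomputed under the alternatives that apply to it, and no stretch median changed sign. Medians moved beyond the spread of the libraries in few settings. Against untreated WT, chromosome 11 went to -0.965 and -0.979 with level minimums of 1 and 5, chromosome 20 to 0.474 as a mean and 0.565 inside the steps, and chromosome 9 to 0.355 and 0.522. Against vincristine-treated WT, chromosome 11 went to -0.947 with a level minimum of 1 and -0.996 as a mean, and chromosome 9 to 0.620 inside the steps. Against vincristine-treated LZK KO, chromosome 20 went to 0.418 as a mean and chromosome 9 to 0.567 inside the steps. The largest shift of the median of all genes under another scaling was 0.0130.

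Counts moved more. Fitting only the groups compared gave 144 members changed by vincristine in WT, 51 in double KO, 211 in DLK KO and 11 in LZK KO, and 14 whose effect differed between double KO and LZK KO. DESeq2 gave 100 for DLK KO and 12 for that difference, and no filter gave 11 for it. Buffered members numbered 27 with a level minimum of 5, 90 against WT only and 24 inside the steps. The cause was not tested.

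Leaving out 1 library gave 28 to 53 members for vincristine in DLK KO (28, 32, 29, 28 and 36 without untreated replicates 1 and 2 and vincristine replicates 1, 2 and 4), 13 to 32 in LZK KO (13 without untreated replicate 2), 0 to 1 in double KO and 213 to 310 in WT. The difference from double KO ran from 134 to 250 for WT (250 without vincristine replicate 4) and from 4 to 11 for LZK KO (11 without untreated replicate 3). The chromosome 9 median against vincristine-treated LZK KO ran from 0.433 to 0.489. MAPK8IP3 with the ATF2 gRNA, which missed the threshold, ran from -0.0502 to 0.00763 and changed sign without ATF2 gRNA untreated replicate 2. CDH7 also lost its call against LZK KO with no filter (0.46).

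The replicate numbers did not pair the samples, with 26 of 112 correlations over 0.1 and 0 of 28 pairs of groups with all over 0.1. With the replicate number as a block the counts were 637, 647, 630 and 647 for the double KO comparisons, for vincristine 239 in WT, 0 in double KO, 52 in DLK KO and 19 in LZK KO, 150 and 6 for the differences from WT and LZK KO, 405 for the ATF2 gRNA and 55 buffered members.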
